A study of Rattus norvegicus with 32 samples.

Results

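The genes examined here encode the machinery of DNA replication and cell division, measured in the intestinal mucosa of Zucker rats. They form a list of 44 genes chosen by function, with earlier results of these data known. Each gene was read from the probe set that carries only its symbol, and from the one with the highest mean where it had several. Of the 44 genes, 41 were measured, out of 17245 genes that the array measures in this way, and *Rrm1*, *Tk1* and *Birc5* were not analysed here. The 41 fall into 7 groups by role, namely 11 genes of replication licensing and the fork, 2 of nucleotide supply, 7 of cyclins, CDK1 with its partner CKS2 and transcription factors, 6 mitotic kinases and checkpoint genes, 3 genes of anaphase onset, 10 of the spindle, kinetochore and cytokinesis, and 2 of chromosome structure.

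Affymetrix Rat Gene 1.1 ST arrays were used, 1 per animal, on male rats of 5 groups. Zucker-Lepr fa/fa rats (ZO), in which both copies of the leptin receptor gene carry the fa mutation in every tissue and which become obese, were sampled after 30 days of a daily oral probiotic (16 rats), after 30 days of placebo (4 rats), or at baseline after a few days of adaptation, while still lean (4 rats). Zucker lean Lepr +/fa rats (ZL), which carry 1 fa copy themselves, were sampled after 30 days of placebo (4 rats) or at baseline (4 rats). The labels do not name the strain that each probiotic rat received, so these 16 rats are a single group that mixes strains. Every sample is labelled as 6 weeks of age, so the 30 days rest on the group names and the methods, and growth and 30 days of placebo cannot be told apart. Values are on a log2 scale, on which a difference of 1 is a 2-fold change. A gene is said to have risen or fallen where limma gave an adjusted p (Benjamini-Hochberg over all 29214 probe sets) under 0.05.

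Before a cell divides, the MCM helicase is loaded on replication origins with the help of CDC6 and CDT1, and E2F factors switch on the genes that S phase needs. Cyclins with CDK1, the Polo and Aurora kinases and FOXM1 then drive mitosis, and CDC20 and UBE2C lead the anaphase-promoting complex to degrade cyclins and securin. In the intestine, dividing cells sit in the crypts, so in a piece of mucosa these transcripts report both how many crypt cells are present and how active they are. In such bulk samples, fewer dividing cells and less RNA per dividing cell cannot be told apart.

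Promoter sequences are shown for 4 members of different roles because the members had a common direction in the comparisons of ZO rats over 30 days and 3 elements known from promoters of such genes could be searched in them. The sequences come from RefSeq (build GRCr8), run 5′ to 3′ on the gene's strand from 250 bases before the start to 50 after it, and were found for 31 of the 41 genes. Capitals mark a CCAAT box (CCAAT), a cell cycle homology region (TTTGAA or TTCGAA) or an E2F site (TTTCCCGC or TTTGGCGC), each searched on both strands. Matches of different motifs overlapped in 1 of the 31 promoters, none of those shown.
Mcm5, a helicase subunit (chr19:13488563-13488862, plus strand): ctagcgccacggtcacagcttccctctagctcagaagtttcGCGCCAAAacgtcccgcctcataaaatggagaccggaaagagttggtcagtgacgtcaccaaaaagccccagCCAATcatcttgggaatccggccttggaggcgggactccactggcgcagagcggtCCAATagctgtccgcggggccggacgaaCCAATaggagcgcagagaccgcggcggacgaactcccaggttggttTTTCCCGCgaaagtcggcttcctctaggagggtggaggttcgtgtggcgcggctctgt
Plk1, the Polo kinase (chr1:186147408-186147707, plus strand): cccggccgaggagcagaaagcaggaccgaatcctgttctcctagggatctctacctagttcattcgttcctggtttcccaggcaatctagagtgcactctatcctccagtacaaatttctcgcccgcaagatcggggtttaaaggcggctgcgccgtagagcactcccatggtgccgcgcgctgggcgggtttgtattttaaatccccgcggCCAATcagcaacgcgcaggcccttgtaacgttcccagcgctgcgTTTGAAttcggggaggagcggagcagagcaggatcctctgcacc
Cdk1, the mitotic kinase (chr20:19265043-19265342, plus strand): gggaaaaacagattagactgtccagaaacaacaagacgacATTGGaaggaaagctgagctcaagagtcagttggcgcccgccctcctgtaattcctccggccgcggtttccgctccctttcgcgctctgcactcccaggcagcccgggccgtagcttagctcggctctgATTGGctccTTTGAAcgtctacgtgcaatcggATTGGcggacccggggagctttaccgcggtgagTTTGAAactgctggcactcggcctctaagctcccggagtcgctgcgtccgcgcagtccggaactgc
Top2a, which untangles chromosomes (chr10:84473044-84473343, minus strand): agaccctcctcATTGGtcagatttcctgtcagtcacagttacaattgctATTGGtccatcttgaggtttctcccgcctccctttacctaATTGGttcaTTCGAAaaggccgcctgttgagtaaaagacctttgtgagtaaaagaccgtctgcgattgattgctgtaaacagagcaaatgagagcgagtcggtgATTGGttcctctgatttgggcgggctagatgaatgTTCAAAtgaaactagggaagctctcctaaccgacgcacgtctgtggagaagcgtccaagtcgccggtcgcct
The *Mcm5* window held 3 CCAAT boxes and 2 E2F sites and no cell cycle homology region. Those of *Plk1*, *Cdk1* and *Top2a* held CCAAT boxes and homology regions and neither searched form of the E2F site. The CCAAT box was present in 24 of 31 member promoters (77.4%), against 37.5% of all 33469 promoters in the table. The cell cycle homology region was present in 17 of 31 (54.8%), against 19.7% of all promoters. The E2F site, in either searched form, was present in 7 of 31 (22.6%), against 1.45%. All 7 were among the 10 promoters of replication and nucleotide genes. None of the other 21 member promoters held either searched form, whereas 15 of those 21 (71.4%) held the homology region, as did 2 of the 10. Other forms of the E2F site were not searched, so a promoter without a match may still hold one. A match describes the letters of the window and is not a measured binding site.

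Probiotic rat Z46 and ZL baseline rat C3 had the lowest mean over these genes in their groups. They were picked after the data were seen, and the group levels, counts and medians that they move are also given without them. The rule-based search for rats that stood apart, given at the end, did not mark C3 and did not cover the probiotic rats. The mean log2 level over the 41 genes was 5.39 in probiotic rat Z46, against 6.17 to 6.81 in the other 15 probiotic rats, and Z46 was lower than their mean in 40 of 41 genes. Its 10 crypt stem cell markers differed from the other 15 rats by a mean of -1.06 and its 6 Paneth cell markers by -0.94, while its 8 epithelial markers differed by -0.0017 and its 9 enterocyte markers by 0.19. In ZL baseline rat C3 the mean over the 41 genes was 6.07, against 6.68 to 7.21 in the other 3 rats of its group, with 40 of 41 genes lower. The stem cell markers of C3 were also lower (-0.77), and its smooth muscle markers (1.61) and macrophage markers (0.97) were higher, than in the other 3 rats. ZL placebo rat C13 had low ileal markers (mean 7.91, against a group median of 11.35), but its mean over the 41 genes, 6.83, lay inside its group. The part of tissue composition in these differences was not tested. The 8 markers of intestinal epithelium, such as Vil1 (villin), were high on every array, with means of 11.58 to 11.84.

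**Figure D1:**
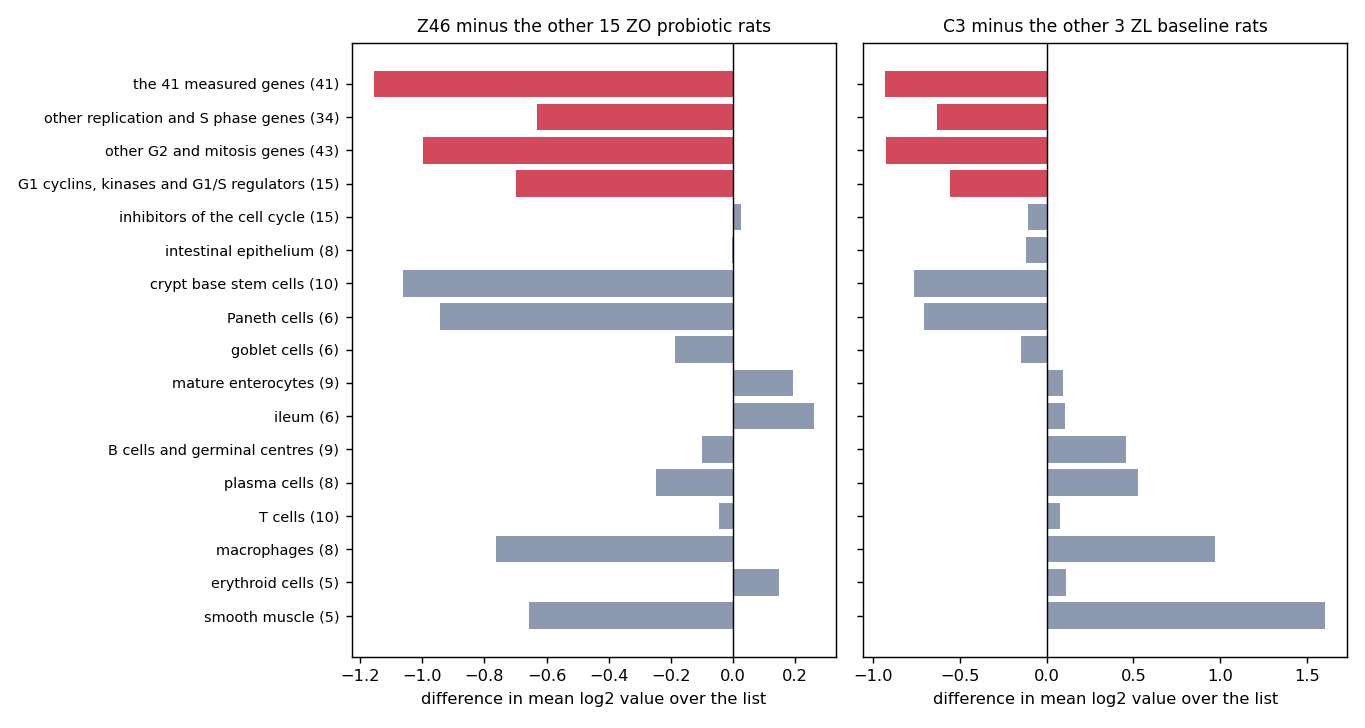
Difference of probiotic rat Z46 from the mean of the other 15 probiotic rats, and of ZL baseline rat C3 from the mean of the other 3 ZL baseline rats, as mean log2 difference over each gene list (horizontal axis). In both rats the division genes (-1.16 in Z46, -0.93 in C3) and the crypt stem cell markers (-1.06 and -0.77) lie below the rest of the group, while smooth muscle markers are lower in Z46 (-0.66) and higher in C3 (1.61).

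The level of the division genes was highest in ZO rats at baseline. All 41 genes had their highest group mean there, or 33 without Z46 and C3, when the other 8 were highest in ZL baseline rats. The lowest group mean was that of ZO placebo rats for 26 genes and that of ZO probiotic rats for 13 (34 and 6 without Z46 and C3). For *Cdc6* it was that of ZL placebo rats, and for *Gins1* that of ZL baseline rats, which were lowest for 0 genes without Z46 and C3. Averaged over the 41 genes, single rats lay between 5.39 and 6.81 on the log2 scale in the ZO probiotic group (median 6.54). ZO placebo rats lay close together, between 6.39 and 6.50, and all below the 4 ZO baseline rats, which lay between 6.87 and 7.37. ZL placebo rats (6.54 to 6.97) and ZL baseline rats (6.07 to 7.21) overlapped with each other and with ZO baseline rats, and all ZL placebo rats lay above the ZO placebo rats. The spread also differed by group: the median within-group SD of a gene was 0.402 in probiotic, 0.117 in ZO placebo, 0.279 in ZO baseline, 0.215 in ZL placebo and 0.557 in ZL baseline rats. Without Z46 it was 0.247 in probiotic rats, and without C3 it was 0.332 in ZL baseline rats.

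**Figure D2:**
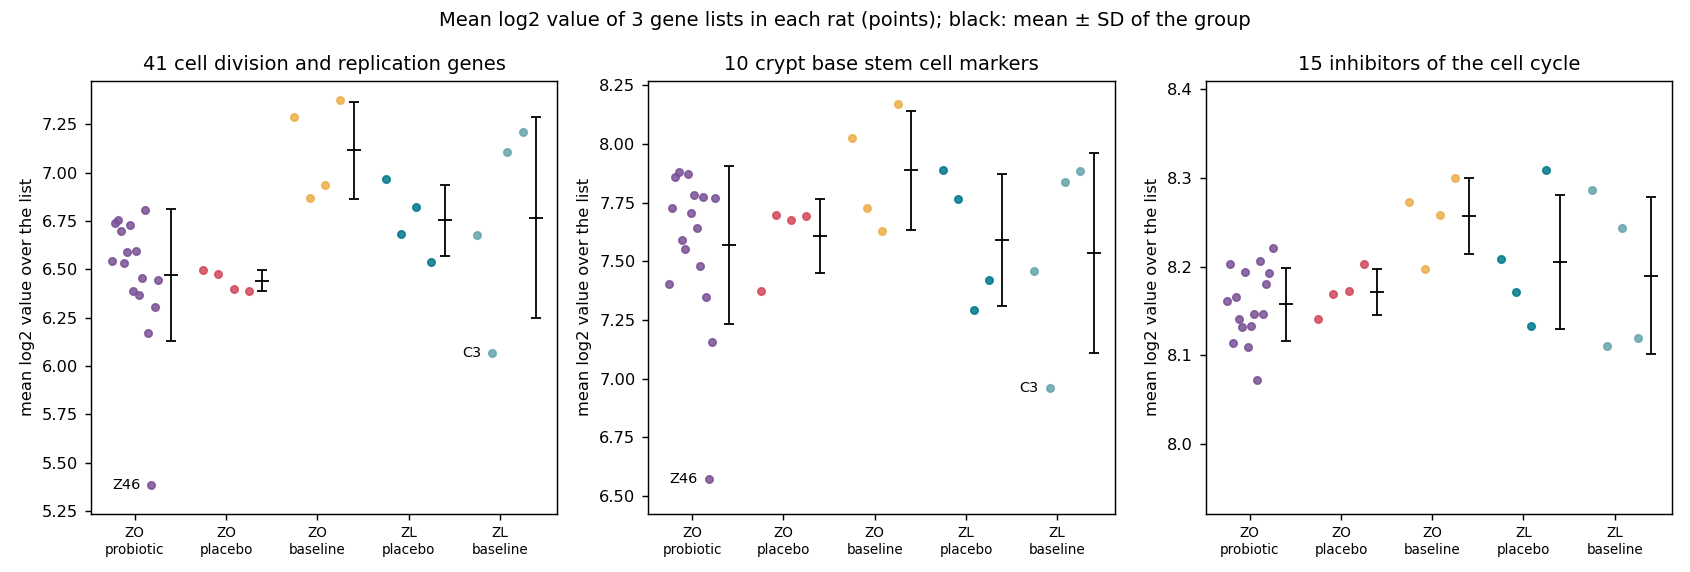
Mean log2 level of each rat (1 point per rat, vertical axis) over the division genes, the crypt stem cell markers and the inhibitors of the cell cycle in the 5 groups, with Z46 and C3 labelled. For the division genes the 4 ZO placebo rats (6.39 to 6.50) lie below the 4 ZO baseline rats (6.87 to 7.37), and the inhibitors stay between 8.07 and 8.31 in every rat.

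The first comparison asks how the mucosa of ZO rats after 30 days of placebo, when obese, differed from that of ZO rats at baseline. All 41 division genes had a lower mean after placebo. Their median log2 fold change was -0.67, a 1.6-fold lower level, and single genes ranged from -1.06 to -0.26. Over all probe sets the median was -0.02 and 54.5% were negative. Log2 fold changes of -0.5 or less were seen in 35 of 41 genes (85.4%), against 2.05% of all probe sets. For 37 genes all 4 placebo rats lay below all 4 baseline rats, against 5.91% of all probe sets. With limma, 2 genes fell (*Mcm5* and *Ube2c*) and none rose, while 0.671% of all probe sets fell. An unadjusted p under 0.05 was seen in 39 of 41 genes, against 3547 of all 29214 probe sets. The count of 2 depends on the arrays that set the error: it was 21 in a limma model of these 2 groups alone, 11 without Z46 and 29 without Z46 and C3, although neither of those rats is in this comparison. It was 0 without Z1, without Z13 or without Z16, where neither gene passed, and *Mcm5* did not pass without Z2, Z4, Z11 or Z15 either. The count was also 0 by the test named in the study's methods after adjustment. These and the later counts under an alternative are given without the share of all probe sets in that setting. They show how far a count depends on the setting and are not read as results about the members.

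**Figure D3:**
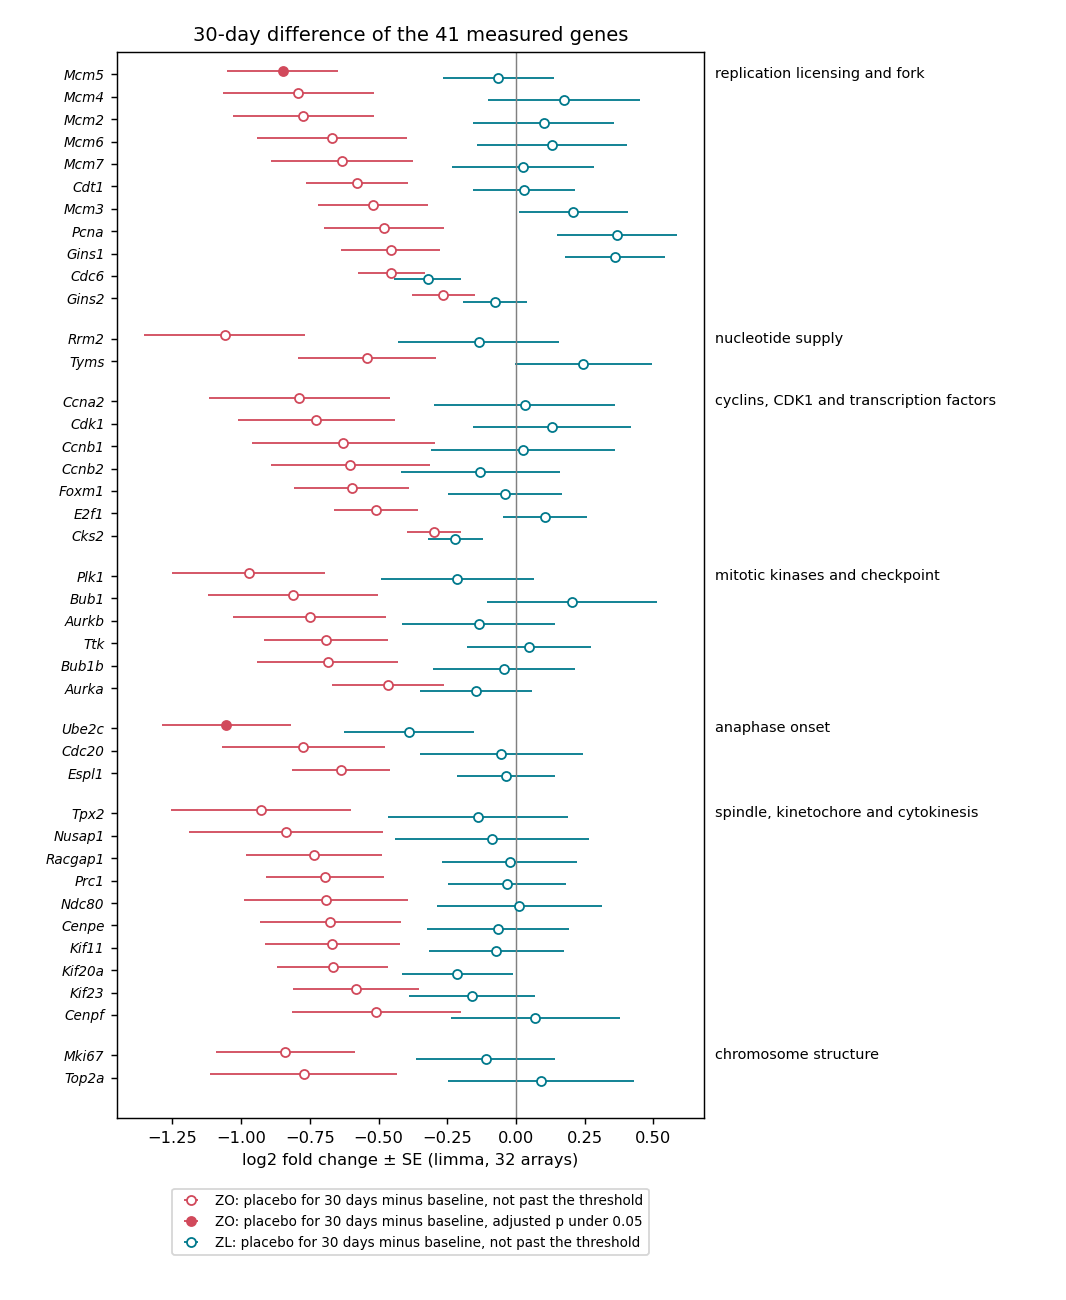
Log2 fold change with its standard error (limma) of each of the 41 genes for placebo over baseline, in ZO rats (n = 4 and 4) and in ZL rats (n = 4 and 4), ordered by role. The ZO changes run from -1.06 to -0.26, all below 0, and the ZL changes from -0.39 to 0.37 on both sides of 0.

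Among the genes of replication licensing and the fork, the median log2 fold change in ZO rats was -0.58 and 9 of 11 had no overlap between placebo and baseline rats. *Mcm5*, a subunit of the MCM helicase, measured 5.87, 5.84, 6.05 and 5.97 in ZO placebo rats, against 6.90, 6.78, 6.44 and 7.01 in ZO baseline rats. The 2 groups did not overlap, and *Mcm5* fell by 0.85 ± 0.20 on the log2 scale (SE, limma), 1.80-fold, with an adjusted p of 0.0261. The other 5 helicase subunits had log2 fold changes of -0.79 for *Mcm4*, -0.77 for *Mcm2*, -0.67 for *Mcm6*, -0.63 for *Mcm7* and -0.52 for *Mcm3*, none past the threshold (adjusted p 0.146 to 0.285). All 6 subunits were without overlap between the groups. *Cdt1*, which loads the helicase, measured 5.26, 5.48, 5.54 and 5.40 in ZO placebo rats, against 6.10, 5.58, 5.89 and 6.43 in ZO baseline rats (log2 fold change -0.58 ± 0.18, limma adjusted p = 0.127). *Cdc6*, the other loading factor, measured 6.12, 6.02, 6.06 and 5.74 in ZO placebo rats, against 6.51, 6.49, 6.47 and 6.28 in ZO baseline rats, a log2 fold change of -0.45 ± 0.12 that lay just outside the threshold (limma adjusted p = 0.0538). *Pcna*, the sliding clamp of the DNA polymerases, measured 8.75, 8.72, 8.87 and 8.65 in ZO placebo rats, against 9.24, 9.25, 8.97 and 9.46 in ZO baseline rats, again without overlap (log2 fold change -0.48 ± 0.22, limma adjusted p = 0.361). The GINS subunits, which join the helicase at the fork, overlapped between the groups, with log2 fold changes of -0.46 for *Gins1* and -0.26 for *Gins2*, the value of the 41 nearest to 0.

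Of the nucleotide supply genes, *Rrm2*, the regulatory subunit of ribonucleotide reductase that makes deoxynucleotides, had the largest log2 fold change of all 41 members. It measured 8.07, 7.52, 7.74 and 7.66 in ZO placebo rats, against 8.91, 8.82, 8.56 and 8.95 in ZO baseline rats. The groups did not overlap, and the log2 fold change was -1.06 ± 0.29 (2.09-fold), with a limma adjusted p of 0.0630. The other probe set of *Rrm2* gave a log2 fold change of -1.03. *Tyms*, thymidylate synthase, measured 7.23, 7.34, 7.23 and 7.16 in ZO placebo rats, against 7.85, 7.58, 7.56 and 8.14 in ZO baseline rats (log2 fold change -0.54, limma adjusted p = 0.376).

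The 7 genes of cyclins, CDK1 with its partner CKS2 and transcription factors had a median log2 fold change of -0.60, and none passed the threshold. *Cdk1*, the kinase that triggers mitosis, measured 6.30, 6.32, 6.36 and 6.25 in ZO placebo rats, against 7.07, 6.99, 6.79 and 7.28 in ZO baseline rats. Its placebo values lay close together and all below the baseline values (log2 fold change -0.73 ± 0.29, limma adjusted p = 0.262). Its cyclins had log2 fold changes of -0.79 (*Ccna2*), -0.63 (*Ccnb1*) and -0.60 (*Ccnb2*), each without overlap between the groups. *Foxm1*, a transcription factor of mitotic genes, had a log2 fold change of -0.60, and *E2f1*, a factor of S phase genes, -0.51 (limma adjusted p = 0.0950). *Cks2*, a small partner of CDK1, overlapped between the groups, with 3.62, 3.85, 3.77 and 4.04 in ZO placebo rats, against 4.39, 4.03, 4.10 and 3.95 in ZO baseline rats (log2 fold change -0.30).

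In the mitotic kinase and checkpoint group all 6 genes were without overlap between placebo and baseline rats, the median being -0.72 on the log2 scale. *Plk1*, the Polo kinase that acts from mitotic entry to cytokinesis, measured 7.76, 7.54, 7.66 and 7.62 in ZO placebo rats, against 8.79, 8.45, 8.27 and 8.96 in ZO baseline rats (log2 fold change -0.97 ± 0.28, limma adjusted p = 0.0770). The checkpoint kinase gene *Bub1* had a log2 fold change of -0.81, and that of *Bub1b*, which holds the anaphase-promoting complex in check, was -0.69. *Ttk*, the kinase at the head of the spindle checkpoint, had a log2 fold change of -0.69. Of the Aurora kinases, *Aurkb*, which corrects chromosome attachment, had a log2 fold change of -0.75 and *Aurka*, which acts at spindle poles, -0.47.

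Anaphase onset held the gene with the smallest adjusted p. *Ube2c*, the ubiquitin-conjugating enzyme of the anaphase-promoting complex, measured 6.68, 6.33, 6.64 and 6.29 in ZO placebo rats, against 7.94, 7.25, 7.44 and 7.53 in ZO baseline rats. Every placebo value was below every baseline value, and *Ube2c* fell by 1.05 ± 0.24 on the log2 scale, 2.08-fold, with a limma adjusted p of 0.0162. *Cdc20*, the activator of the same complex, had 7.41, 7.48, 7.36 and 7.20 in ZO placebo rats, against 8.31, 7.70, 7.94 and 8.60 in ZO baseline rats (log2 fold change -0.77, limma adjusted p = 0.245). *Espl1*, the separase that cuts cohesin, had 4.81, 4.84, 4.93 and 4.91 in ZO placebo rats, against 5.63, 5.18, 5.40 and 5.81 in ZO baseline rats (log2 fold change -0.64 ± 0.18, limma adjusted p = 0.0667).

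The 10 genes of the spindle, kinetochore and cytokinesis ranged from -0.93 to -0.51, with no gene past the threshold and 9 without overlap. *Tpx2*, a spindle assembly factor that activates Aurora A, measured 7.32, 6.80, 7.10 and 7.08 in ZO placebo rats, against 8.19, 7.78, 7.69 and 8.35 in ZO baseline rats. The microtubule-binding gene *Nusap1* followed with a log2 fold change of -0.84. The kinesin genes were close to each other: *Kif11*, the motor that pushes spindle poles apart, had -0.67, *Kif20a* -0.67 and *Kif23* -0.58 as log2 fold changes. At the kinetochore the values were -0.69 for *Ndc80*, which binds microtubules, -0.67 for the motor gene *Cenpe* and -0.51 for *Cenpf*, the member whose groups overlapped. *Racgap1* and *Prc1*, both of the central spindle, had log2 fold changes of -0.74 and -0.70.

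Of the chromosome genes, *Mki67* encodes the proliferation antigen Ki-67. It measured 9.13, 8.94, 8.93 and 8.91 in ZO placebo rats, against 9.99, 9.70, 9.54 and 10.02 in ZO baseline rats, and averaged 8.98 ± 0.10 in ZO placebo rats and 9.82 ± 0.23 in ZO baseline rats (SD, n = 4 each). The groups did not overlap, the log2 fold change was -0.84 ± 0.25, and the limma adjusted p was 0.0963. *Top2a*, topoisomerase II alpha, measured 8.05, 7.95, 8.04 and 7.90 in ZO placebo rats, against 8.94, 8.55, 8.41 and 9.12 in ZO baseline rats (log2 fold change -0.77 ± 0.34, limma adjusted p = 0.336).

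**Figure D4:**
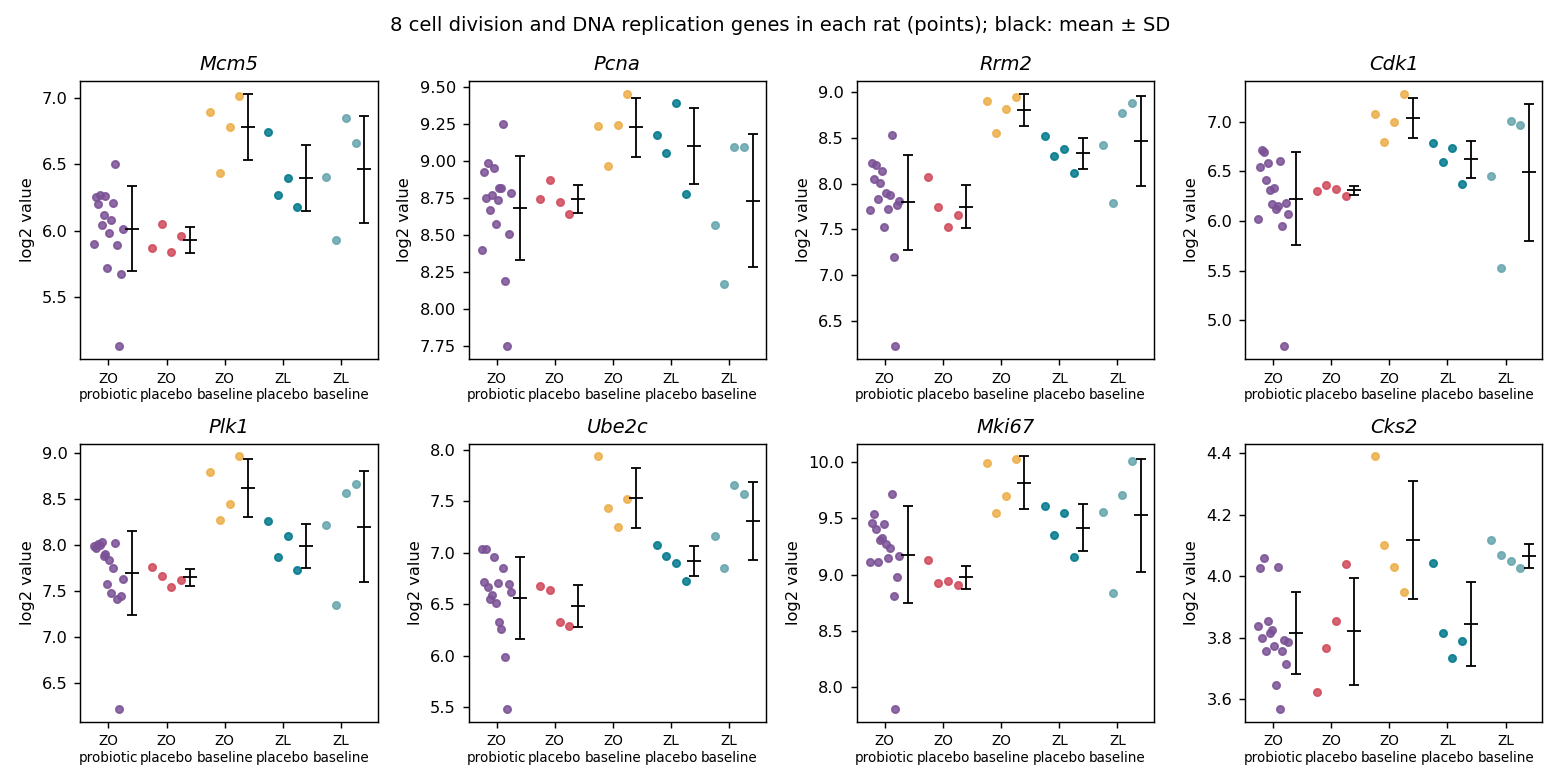
Log2 level of 8 division genes in each rat (points, vertical axis) by group, with the group's mean ± SD in black. In Ube2c and Mcm5 the 4 ZO placebo rats (6.29 to 6.68 and 5.84 to 6.05) lie below the 4 ZO baseline rats (7.25 to 7.94 and 6.44 to 7.01), and the lowest probiotic point of Ube2c (5.48) is rat Z46.

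Markers of other cells moved in part with this comparison. Of 10 crypt stem cell markers 9 had a lower mean after placebo and 0 passed the threshold in limma (median log2 fold change -0.23, 2 at an unadjusted p under 0.05). The stem cell list averaged 7.37 to 7.70 in single ZO placebo rats and 7.63 to 8.17 in ZO baseline rats. Of 6 Paneth cell markers 5 were lower, with 0 past the threshold (median -0.09, 1 at an unadjusted p under 0.05). Of 5 erythroid markers 4 fell (median -0.91), with list means of 4.95 to 5.11 in ZO placebo rats and 5.55 to 6.30 in ZO baseline rats, which do not overlap. Among 9 enterocyte markers, *Slc2a5* and *Fabp1* rose and the median was 0.25, with list means of 12.39 to 12.44 in ZO placebo rats and 11.46 to 12.25 in ZO baseline rats. Of 6 goblet cell markers *Spink4* fell (-1.58, limma adjusted p = 0.0273), and the list means, 11.39 to 11.65 in ZO placebo rats and 11.76 to 11.89 in ZO baseline rats, do not overlap. Of 8 plasma cell markers *Jchain*, the chain that joins IgA and IgM, rose (1.48, limma adjusted p = 0.0381), with list means of 7.55 to 8.03 in ZO placebo rats and 7.23 to 7.67 in ZO baseline rats. All 8 macrophage markers had a higher mean after placebo (median 0.31), with 0 past the threshold in limma and 0 at an unadjusted p under 0.05. The 5 smooth muscle markers had a median of 0.51 with 0 past the threshold and 0 at an unadjusted p under 0.05. The 8 epithelial markers had a median of -0.06, with 0 past the threshold and 3 at an unadjusted p under 0.05. The part of these cells in the result was not tested.

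The same comparison in ZL rats asks how the mucosa of rats that stay lean differed after 30 days of placebo. Here 23 of 41 genes had a lower and 18 a higher mean after placebo. Their median log2 fold change was -0.04, in a range of -0.39 to 0.37. No gene passed the threshold in limma (lowest adjusted p 0.177), where 0.911% of all probe sets did. At an unadjusted p under 0.05 limma gave 2 of 41 genes, against 4931 of 29214 probe sets. The test named in the study's methods gave 1 gene at that level. For no gene did the 2 ZL groups separate. Of all 29214 probe sets, 890 had all placebo rats below all baseline rats and 828 had them above. *Ube2c* measured 7.08, 6.90, 6.97 and 6.73 in ZL placebo rats, against 7.16, 7.66, 6.85 and 7.57 in ZL baseline rats, a log2 fold change of -0.39 ± 0.24, the lowest of the 41. *Pcna* had the highest, 0.37 ± 0.22, with 9.18, 9.39, 9.06 and 8.78 in ZL placebo rats, against 8.57, 9.10, 8.17 and 9.09 in ZL baseline rats. In 34 genes the spread was largest in the ZL baseline group, which holds rat C3 (19 genes without Z46 and C3). Without C3, 37 of 41 genes were lower and the median log2 fold change in ZL rats was -0.27, still with no gene past the threshold. Cell markers shifted in ZL rats too. All 8 macrophage (median 0.34), all 5 smooth muscle (0.35), 7 of 8 plasma cell (0.23) and 7 of 9 enterocyte markers (0.18) were higher. Lower means were seen in 5 of 6 goblet cell (-0.09), 4 of 5 erythroid (-0.14) and all 6 ileal markers (-0.71, with C13 in the placebo group). None of these passed in limma, and their part was not tested.

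Whether the change over 30 days differed between the genotypes was tested as an interaction. The change in ZO rats was the lower one for all 41 genes, by a median of -0.70 (range -1.02 to -0.08), against a median of -0.01 over all probe sets. None passed the threshold in limma (lowest adjusted p 0.351), as 0.00342% of all probe sets did. An unadjusted p under 0.05 was seen in 18 of 41 genes, against 2487 of 29214 probe sets. *Bub1* had the largest value (-1.02), with 6.75, 6.61, 6.57 and 6.46 in ZO placebo rats, against 7.56, 7.18, 7.11 and 7.79 in ZO baseline rats, and 7.32, 7.03, 6.80 and 6.50 in ZL placebo rats, against 6.80, 7.15, 5.62 and 7.27 in ZL baseline rats. The low value of C3, 5.62, stood below the other 3 ZL baseline rats there. *Cks2* (-0.08) and *Cdc6* (-0.13) differed least between genotypes. Without C3 the median difference was -0.47. A difference between the genotypes in the 30-day change of these genes was therefore not detectable past the threshold with 4 rats a group.

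Averaged over both genotypes, the 30-day change was negative in all 41 genes (median log2 fold change -0.34), and 3 fell, with 1.35% of all probe sets falling. These were *Ube2c* (-0.72 ± 0.17, limma adjusted p = 0.0116), *Cdc6* (-0.39 ± 0.09, adjusted p = 0.00902) and *Cks2* (-0.26 ± 0.07, adjusted p = 0.0318). *Cdc6* measured 6.15, 5.79, 5.95 and 5.70 in ZL placebo rats, against 6.14, 6.39, 5.99 and 6.36 in ZL baseline rats, so its ZL change (-0.32) was near its ZO change (-0.45). *Cks2* measured 4.04, 3.73, 3.81 and 3.79 in ZL placebo rats, against 4.12, 4.05, 4.07 and 4.03 in ZL baseline rats, and its ZL change was -0.22. The count was 9 without C3, 9 without Z46 and 29 without both, and the median was -0.48 without C3. *Cks2* did not pass with quantile normalization or in a model of the groups compared. It did not pass without C1, C13, C15, C16, Z1, Z3, Z11, Z13 or Z15 either. Its group means, 3.81 to 4.12, lay below the array medians of 4.79 to 4.97. *Cdc6* and *Ube2c* passed in each of these settings. Among the cell markers *Spink4* of goblet cells (-1.43) and 2 of 5 erythroid markers fell, and 3 of 9 enterocyte markers, 2 of 8 plasma cell markers and 1 of 8 epithelial markers rose; their part in the result was not tested.

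**Figure D5:**
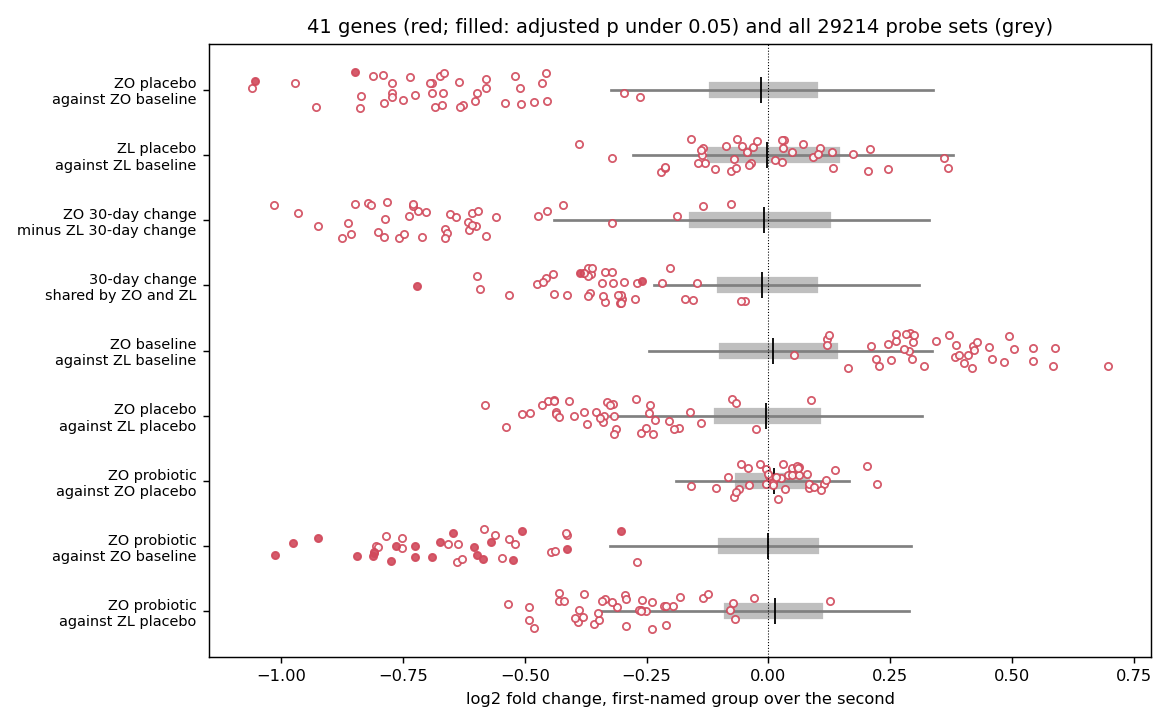
Log2 differences of the 41 division genes (red points, filled where the adjusted p was under 0.05) in the 9 comparisons, on all 29214 probe sets (grey bar for the middle 50%, line from the 5th to the 95th percentile, black tick at their median). The member medians are -0.67 for ZO placebo over ZO baseline, -0.64 for ZO probiotic over ZO baseline, -0.04 for ZL placebo over ZL baseline and 0.03 for ZO probiotic over ZO placebo.

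Set against ZL rats of the same time point, ZO rats had higher mean levels of all 41 genes at baseline (median log2 fold change 0.34, range 0.05 to 0.70), when both genotypes were lean. No gene passed the threshold in limma (lowest adjusted p 0.322), and neither did any probe set on the array (0%, with 3352 at an unadjusted p under 0.05); 5 members had an unadjusted p under 0.05 with limma and 0 by the test named in the study's methods. *Bub1* had the largest difference, 0.70 ± 0.31, and *Cks2* the smallest, 0.05. No gene was without overlap between the groups, while of all 29214 probe sets 448 had all ZO rats below all ZL rats and 603 had them above. Without C3 the median of the 41 genes was 0.10, with 33 genes higher and 8 lower. In the same comparison the stem cell markers had a median of 0.37 and the erythroid markers one of 0.66, and the smooth muscle markers one of -0.57, with none past the threshold in limma (0, 3 and 0 at an unadjusted p under 0.05, in this order). All 6 goblet cell (median 0.16) and 7 of 8 epithelial markers (0.06) were higher, 2 of each list at an unadjusted p under 0.05. Lower means were seen in 7 of 8 macrophage (-0.39) and 8 of 10 T cell markers (-0.08). None of these passed in limma, and the part of these cells was not tested.

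After 30 days of placebo the sign was the other way. In ZO rats 40 of 41 genes had a lower mean than in ZL rats (median log2 fold change -0.33, range -0.58 to 0.09), and for 18 genes all ZO placebo rats lay below all ZL placebo rats, against 4.19% of all probe sets. No gene passed the threshold in limma (lowest adjusted p 0.252), where 1.04% of all probe sets did. At an unadjusted p under 0.05 there were 6 genes with limma and 20 by the test named in the study's methods. The share of all probe sets at that level is not given here. *Rrm2* measured 8.07, 7.52, 7.74 and 7.66 in ZO placebo rats, against 8.52, 8.38, 8.31 and 8.12 in ZL placebo rats, the largest difference (-0.58 ± 0.29). *Mcm5* measured 5.87, 5.84, 6.05 and 5.97 in ZO placebo rats, against 6.74, 6.40, 6.27 and 6.18 in ZL placebo rats (-0.46 ± 0.20), also without overlap. *Cdc6* was the 1 gene with a higher ZO mean (0.09). All 8 macrophage markers were also lower in ZO placebo rats (median -0.40), with 0 past the threshold in limma and 1 at an unadjusted p under 0.05. Of 9 B cell markers 8 were lower (median -0.24). All 6 ileal markers were higher (median 0.55), and C13, with its low ileal markers, is in the ZL placebo group. Higher means were also seen in 7 of 9 enterocyte (median 0.12), 5 of 6 goblet cell (0.12) and 5 of 6 Paneth cell markers (0.25). None of these passed in limma, and the part of these cells was not tested. These comparisons share their rats with those over 30 days, so a high value in the 4 ZO baseline rats enters the baseline comparison and the ZO 30-day change alike.

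The 16 ZO rats given a probiotic were compared with ZO placebo rats, which asks whether any probiotic was accompanied by another level of these genes. It was not detectable: 13 genes had a lower and 28 a higher mean, the median log2 fold change was 0.03 (range -0.16 to 0.22), and no gene passed the threshold (lowest limma adjusted p 0.998) or reached an unadjusted p under 0.05, by limma or by the test named in the study's methods. Of all probe sets, 0.00342% passed. *Mki67* measured 7.81 at the lowest, 9.26 at the median and 9.71 at the highest in ZO probiotic rats, against 9.13, 8.94, 8.93 and 8.91 in ZO placebo rats. Its log2 fold change was 0.20 with a 95% interval of -0.21 to 0.61. *Mcm5* had values of 5.13, 6.06 and 6.51 (lowest, median, highest) in ZO probiotic rats, against 5.87, 5.84, 6.05 and 5.97 in ZO placebo rats, and a 95% interval of -0.24 to 0.41 around 0.08. Over the 41 genes the intervals reached no lower than -0.70 (*Ccnb1*) and no higher than 0.65 (*Tpx2*), so differences of that size were not excluded. The most positive value was that of *Espl1* (0.22), and the most negative that of *Ccnb1* (-0.16). In all 41 genes the range of the probiotic rats overlapped that of the placebo rats, and without Z46 the median was 0.11 and 6 genes had a lower mean.

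Against ZO baseline rats, the probiotic rats had lower means in all 41 genes, at a median of -0.64 on the log2 scale (range -1.01 to -0.27) and 34 genes at -0.5 or less. The 5th percentile of all probe sets was -0.33. With 16 rats in the group, 21 genes fell and none rose, as 3.18% of all probe sets fell. For 8 genes all 16 probiotic rats lay below all 4 baseline rats, against 1.06% of all probe sets. The comparison uses the same 4 baseline rats as that of placebo rats, so it does not count as a second measurement of the change. By role, 5 of 11 replication genes fell (*Mcm2*, *Mcm4*, *Mcm5*, *Cdc6* and *Cdt1*), both nucleotide genes (*Rrm2* and *Tyms*), 4 of 7 cyclin and transcription factor genes (*Cdk1*, *Cks2*, *E2f1* and *Foxm1*), 5 of 6 kinase genes (*Plk1*, *Aurka*, *Aurkb*, *Bub1b* and *Ttk*), 2 of 3 anaphase genes (*Ube2c* and *Cdc20*), 3 of 10 spindle genes (*Kif20a*, *Prc1* and *Racgap1*) and neither chromosome gene. The count was 29 without Z46 and 37 without Z46 and C3, and it was 5 without baseline rat Z4 and 6 without baseline rat Z1. The median was -0.55 without Z46, again with all 41 genes lower.

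*Ube2c* had values of 5.48, 6.64 and 7.04 (lowest, median, highest) in ZO probiotic rats, against 7.94, 7.25, 7.44 and 7.53 in ZO baseline rats. Every probiotic rat lay below every baseline rat, and the gene fell by 0.98 ± 0.19 on the log2 scale (limma adjusted p = 0.00131). *Mcm5* fell by 0.76 ± 0.16 (adjusted p = 0.00315), with 5.13, 6.06 and 6.51 in ZO probiotic rats, against 6.90, 6.78, 6.44 and 7.01 in ZO baseline rats, where the highest probiotic rat passed the lowest baseline rat. *Rrm2* had the largest log2 fold change (-1.01 ± 0.23, adjusted p = 0.00722), with 6.22, 7.85 and 8.53 in ZO probiotic rats, against 8.91, 8.82, 8.56 and 8.95 in ZO baseline rats, and no overlap. *Plk1* fell by 0.92 ± 0.22 (adjusted p = 0.00998), with 6.21, 7.86 and 8.04 in ZO probiotic rats, against 8.79, 8.45, 8.27 and 8.96 in ZO baseline rats. All probiotic rats were below the baseline rats in *Plk1* too. *Cdk1* had 4.74, 6.25 and 6.71 in ZO probiotic rats, against 7.07, 6.99, 6.79 and 7.28 in ZO baseline rats, and fell by 0.81 ± 0.23 (adjusted p = 0.0292). *Mki67* lay just outside the threshold, with a log2 fold change of -0.64 ± 0.20 (limma adjusted p = 0.0551), as did *Pcna* (-0.55 ± 0.17, adjusted p = 0.0567). *Top2a* and *Ccnb1*, in which Z46 was lowest by far (6.25 and 5.42), had log2 fold changes of -0.75 and -0.79 that did not pass (adjusted p = 0.10 and 0.0767). Of 5 erythroid markers 4 fell here too (median -0.72), and 0 of 10 stem cell markers passed (median -0.24, 3 at an unadjusted p under 0.05).

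The other cell markers of this comparison moved as follows. Of 9 enterocyte markers 4 rose (*Slc2a5*, *Fabp1*, *Lct* and *Mttp*; median of the list 0.32), with list means of 12.22 to 12.58 in ZO probiotic rats and 11.46 to 12.25 in ZO baseline rats. Of 6 goblet cell markers *Spink4* fell (-1.76, limma adjusted p = 0.000359), with list means of 11.19 to 11.69 in ZO probiotic rats and 11.76 to 11.89 in ZO baseline rats, which do not overlap. *Jchain* of 8 plasma cell markers (0.99) and *Cd3d* of 10 T cell markers (0.64) rose. None of 6 Paneth cell, 8 macrophage, 9 B cell, 6 ileal, 5 smooth muscle and 8 epithelial markers passed in limma (1, 0, 0, 0, 0 and 2 at an unadjusted p under 0.05, in this order). The part of these cells in the result was not tested.

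Against ZL placebo rats, 40 of 41 genes had a lower mean in the probiotic rats. The median was -0.29 on the log2 scale, in a range of -0.53 to 0.13. No gene passed the threshold in limma, although 4.66% of all probe sets did. At an unadjusted p under 0.05 there were 10 genes with limma and 8 by the test named in the study's methods, given without the share of all probe sets. *Cdt1* came nearest, with 4.87, 5.46 and 5.89 (lowest, median, highest) in ZO probiotic rats, against 5.82, 6.20, 5.99 and 5.63 in ZL placebo rats, a log2 fold change of -0.48 ± 0.15 and an adjusted p of 0.0528. *Cdc6* was the gene with the higher mean in probiotic rats (0.13). Without Z46 the median was -0.21 and 39 genes were lower. All 8 macrophage markers had a lower mean in the probiotic rats too (median -0.66, 6 at an unadjusted p under 0.05), and *Cd68* passed (-0.73, limma adjusted p = 0.0412). Their list means were 6.01 to 7.35 in ZO probiotic rats and 6.66 to 7.55 in ZL placebo rats, which overlap. *Blk* of 9 B cell markers (-0.52) and *Il7r* of 10 T cell markers (-1.06) were lower as well. *Fabp1* (0.17) and *Apoa4* (0.38) of 9 enterocyte markers, *Spdef* of 6 goblet cell markers (0.40), *Pyy* of 6 ileal markers (1.32) and *Cdx1* of 8 epithelial markers (0.44) were higher. Rat C13, with its low ileal markers, is in the ZL placebo group, and the part of these cells in the result was not tested.

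Other genes of the cell cycle were read from a further list of 119, of which 107 were measured. In ZO placebo over ZO baseline rats 11 of the 107 fell and none rose, while 0.671% of all probe sets fell. The median of the 107 was -0.53 on the log2 scale, and 97 were negative, against 54.5% of all probe sets. Among 34 other S phase genes (median -0.53) those that fell were *Exo1*, an exonuclease of replication repair (-0.98), *Pole*, the leading-strand polymerase (-0.94), *Pola2*, a subunit of the polymerase that starts each strand (-0.66), and *Clspn*, a fork protection factor (-0.54). Of 43 other G2 and mitosis genes (median -0.64) *Kif18b* (-0.99), *Hmmr* (-0.92), *Cep55* (-0.89), *Cit* (-0.67) and the kinetochore gene *Spc24* (-0.56) fell. Of 15 G1 cyclins, kinases and regulators (median -0.41) *Mybl2*, a transcription factor of the G1/S and G2/M genes, fell (-1.02), as did cyclin D2, *Ccnd2* (-0.47), while *Ccne1*, cyclin E1, did not pass (-0.79, limma adjusted p = 0.0517). Of 15 inhibitors of the cell cycle none passed in limma, 4 had an unadjusted p under 0.05, and their median was -0.03. The inhibitors with the smallest p were *Rbl1*, a pocket protein (-0.37), *Wee1*, a kinase that blocks CDK1 (-0.58), and *Ccng2*, an atypical cyclin (0.38).

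In ZL placebo over ZL baseline rats the same 107 genes had a median of 0.01, with *Ccng1*, a target of p53, higher (0.36) and *Cdkn2a*, which encodes inhibitors of CDK4 and MDM2, lower (-0.44). Of all probe sets 0.911% passed there. Averaged over both genotypes, *Ccnd2* (-0.33), *E2f7* (-0.47), *Cit* (-0.42), *Kif18b* (-0.57), *Spc24* (-0.34), *Exo1* (-0.50) and *Mcm10* (-0.46) fell and *Ccng1* rose (0.25). Of all probe sets 1.35% fell in that comparison, and 779 of 29214 rose. In ZO placebo over ZL placebo rats *Pola2* was lower (-0.75, limma adjusted p = 0.00607) and no other gene of the list passed, while 1.04% of all probe sets did. In ZO probiotic over ZL placebo rats *Ccnd2* (-0.43), *Mybl2* (-0.76), *Wee1* (-0.49) and *Pola2* (-0.62) were lower and *Cdkn2b*, an inhibitor of CDK4, was higher (0.60). There 4.66% of all probe sets passed. Against 3.18% of all probe sets, 47 of the 107 fell and none rose in ZO probiotic over ZO baseline rats, with a median of -0.50. They were 18 of 34 S phase genes (for example *Exo1*, -0.81, and *Uhrf1*, -0.74, which recruits the maintenance DNA methyltransferase), 20 of 43 G2 and mitosis genes (*Pbk*, -1.05, and *Cenpa*, the centromeric histone, -0.80), 7 of 15 G1 genes (*Mybl2*, -1.02, and *Ccnd2*, -0.52) and 2 of 15 inhibitors (*Cdkn2c*, -0.49, and *Wee1*, -0.63).

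Across rats the division genes had similar profiles. Over the 820 pairs of members the median Pearson correlation across the 32 arrays was 0.85 (range 0.18 to 0.98), and 0.83 (-0.05 to 0.98) after the group means were taken out. Without Z46 and C3 these medians were 0.80 and 0.65. The points are arrays of 5 groups that share normalization and, within an array, 1 piece of tissue, so the values are a description only. *Plk1* was the gene most like the others (mean correlation 0.87), and *Cdc6* the one least like them (0.36). With the group means taken out, *Top2a* was the most alike (0.84) and *Cks2* the least (0.07).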

How the data were processed

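RNA from the intestinal mucosa of 32 rats was hybridised by the authors to Affymetrix Rat Gene 1.1 ST arrays and summarised per probe set by RMA (Partek Genomics Suite in the methods, Affymetrix Expression Console in the submitters' processing notes), which gives log2 values; the genome build of the annotation was not given in the sources used here. In the deposited table the values had lost their decimal point, so they were held as a score with no unit, and the log2 values were restored by placing the point after digit 2 in values that begin with 10, 11, 12 or 13 and after digit 1 in all others. Of 934848 values, 161 kept a point, and the restored values ran from 1.58 to 13.5. The median of an array was 4.79 to 4.97, and pairs of arrays correlated at 0.979 to 0.997. The number of arrays limits the precision, and depth does not apply. The design had assumed log2 values in the file, and the same test was used after restoring them.

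Probe sets were named from the platform annotation: 18644 of 29214 had 1 symbol, 962 several and 9608 none. Rrm2 and Ccnb2 had 2 probe sets of their own. A linear model of 5 group means over all 32 arrays was fitted with limma 3.58.1 in R 4.3.3, with p-values adjusted over all 29214 probe sets (Benjamini-Hochberg, threshold 0.05). It was tested on simulated data. The labels name separate rats, which are the replicates. The members, the other gene lists and the marker lists were chosen with earlier results of these data known. Genes were named when they were members, when they passed the threshold in a fixed list, or when they were among the 3 of such a list with the smallest p in ZO placebo over ZO baseline rats; of the genes of the wider lists that fell in probiotic over baseline rats, examples are named. Summaries used Python 3.11.15 and pandas 2.3.3, and promoters came from RefSeq (GRCr8). Alternatives were quantile normalization, centring on array medians, leaving out the lowest 30% of probe sets, 1 probe set per gene, the mean of a gene's probe sets, array weights, a model fitted to the compared groups alone, blocks (rat number, order of deposit), single rats left out, and the test named in the methods.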

Additional observations from a re-analysis of the deposited data

Results flagged for a closer look

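In the groups of 4 rats, 168 sets of values (a gene in a group, or a list mean) were searched for a rat that stood apart. The rule was a gap to its nearest neighbour, as a share of the group's range, above Dixon's 95% critical value. It marked 6 sets, fewer than the 8.4 that chance alone would mark at about 1 in 20. The 16 probiotic rats were not searched, and ZL baseline rat C3 was not marked in any set. In ZO placebo rats, *Mki67* was high in Z11 (9.13, against 8.91, 8.93 and 8.94 in the other rats). *Mcm3* was high in Z16 of the same group (6.07, against 5.78, 5.82 and 5.83). *Racgap1* was low in Z13 (6.17, against 6.40, 6.42 and 6.44). The other 3 were all high values of ZL placebo rat C11. There *Foxm1* was 7.19, against 6.81, 6.85 and 6.86, *Kif23* was 6.83, against 6.37, 6.37 and 6.41, and *Racgap1* was 7.01, against 6.56, 6.56 and 6.60. C11 also had the highest mean over the 41 genes in its group (6.97).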

How the results depend on the processing

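All median log2 fold changes of the 41 genes kept their sign under the alternatives, except that of ZL placebo over ZL baseline, which ran from -0.27 to 0.14 when single rats were left out. For ZO placebo over ZO baseline the number of genes that fell, 2, became 5 with quantile normalization, 4 without the lowest 30% of probe sets, 5 with 1 probe set per gene, 21 in a model of the groups compared, 27 with array weights, 11 without Z46 and 29 without Z46 and C3. The methods' t-test gave 0 after adjustment and 37 before it, leaving out single rats of the groups compared gave 0 to 2, and 0 to 11 with Z46 counted in. For the change shared by both genotypes the count of 3 became 5 with quantile normalization, 10 with array weights, 9 without Z46, 29 without Z46 and C3, and 2 to 9 without single rats. For ZO probiotic over ZO baseline the count of 21 became 39 with array weights and 37 without Z46 and C3. The methods' t-test gave 11 after adjustment and 40 before it, leaving out single baseline rats gave 5 to 18, and leaving out Z46 gave 29. For ZO probiotic over ZL placebo the count of 0 became 1 without the lowest 30% of probe sets, 1 with 1 probe set per gene, 2 with array weights, 1 without Z46 and C3, and 8 with the t-test before adjustment (limma 10 before adjustment). That t-test before adjustment gave 20 for ZO placebo over ZL placebo and 1 for ZL placebo over ZL baseline, where limma gave 6 and 2 before adjustment and 0 and 0 after it. The causes were not tested. All of these counts are given without the share of all probe sets that passed in the same setting. Among single genes 1006 values kept their side of the threshold, 89 moved past it, 77 moved back and 0 reversed. Leaving out Z46 and C3 was chosen after seeing the data. Rats of the genotypes share only a number: their deviations correlated at -0.04 to 0.23 over 8 pairs, 2 of them over 0.1, and 1 of 8 rats correlated best with its own number. A replicate block on that number left the count of genes past the threshold at 0 in the 3 comparisons between genotypes.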
